A study of Caenorhabditis elegans with 26 samples.

Results

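The genes described here are 10 genes of the X-chromosome signal and the sex determination pathway of Caenorhabditis elegans: xol-1, sex-1, ceh-39, fox-1, sdc-1, sdc-2, sdc-3, her-1, tra-1 and fem-3. They were taken by name from a table of small-RNA reads with 22277 genes and unmatched identifiers, and the transcript entries of each gene were summed. The set was chosen by measured values of these data, namely the fewer reads at xol-1 and ceh-39 in the double mutant rde-3 mut-16(DE6R), so every value of the 10 genes in comparisons with that genotype is a description without a test. The readout is small RNA counted on each gene, not its mRNA. Of the 10 genes, 6 lie on X and 4 on autosomes.

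Small RNAs of whole worms were sequenced from 3 genotypes with 2 libraries each: rde-3 mut-16(DE6R), mut-16(DE6R) and WT. The double mutant carries an rde-3 mutation together with mut-16(DE6R), and both mutant groups share mut-16(DE6R). The labels do not explain DE6R, and they name no rde-3 allele, stage, age or sex. Nor is it stated that the paired libraries of a genotype are separate cultures. The spread behind each p-value is then that of library preparations at least, and may be technical in whole. The other 20 libraries of the series come from tethering strains and were not analysed here.

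As background, C. elegans reads its sex from the number of X chromosomes relative to autosomes. X signal elements, among them the nuclear receptor SEX-1, the ONECUT homeodomain protein CEH-39 and the RNA-binding protein FOX-1, repress xol-1, the switch that is on in males and off in hermaphrodites. Where xol-1 is off, SDC-2 works with SDC-1 and SDC-3 to bring the dosage compensation complex to both X chromosomes and to repress her-1, and the pathway then runs through the FEM proteins to TRA-1. xol-1 is also known as a target of piRNAs. MUT-16 is the scaffold of the mutator foci, where 22G small RNAs are amplified on target transcripts, and RDE-3 is a nucleotidyltransferase that tails RNAs used as templates for that step.

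Counted reads per library were 515300 and 584502 in rde-3 mut-16(DE6R), 620047 and 1571194 in mut-16(DE6R), against 1149904 and 1359593 in WT. The 10 genes together held 72 and 103 of these reads in rde-3 mut-16(DE6R), 327 and 727 in mut-16(DE6R), against 276 and 369 in WT, so counting error sets the precision of most values. Over both libraries of a genotype, a floor of 3 reads corresponds to 2.16 CPM in rde-3 mut-16(DE6R), 1.02 CPM in mut-16(DE6R) and 2.03 CPM in WT (CPM are read counts scaled to library size with TMM factors, which set libraries to a common level for the bulk of genes). The gene F56H9.8 took 55.5% and 55.5% of reads in rde-3 mut-16(DE6R), 37.6% and 37.5% in mut-16(DE6R), against 51.7% and 49.5% in WT, which makes the scaling matter. Summed CPM of germline markers ran from 1424 to 1470 in rde-3 mut-16(DE6R), from 1036 to 1088 in mut-16(DE6R) and from 1214 to 1323 in WT. The sum is led by glh-1, which fell in both mutants. Of the 7 tested germline markers, 6 rose in the double mutant against WT (all but glh-1), and in mut-16(DE6R) against WT only htp-3 rose, 1 fell and 5 did not pass.

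Of the 10 genes, 7 had enough reads to be tested: xol-1, sex-1, ceh-39, sdc-2, sdc-3, tra-1 and fem-3. In mut-16(DE6R) against WT, reads fell at xol-1 and sdc-3 and rose at ceh-39, and the other 4 did not pass (edgeR's quasi-likelihood test, Benjamini-Hochberg adjusted p under 0.05 over 5312 genes). Of all genes tested, 36.6% passed as lower and 22.1% as higher, so 2 lower and 1 higher of 7 is near the background. The WT libraries of this comparison were also those that served to choose the set. With whole worms, fewer cells that make a small RNA and fewer copies per cell cannot be told apart.

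**Figure D1:**
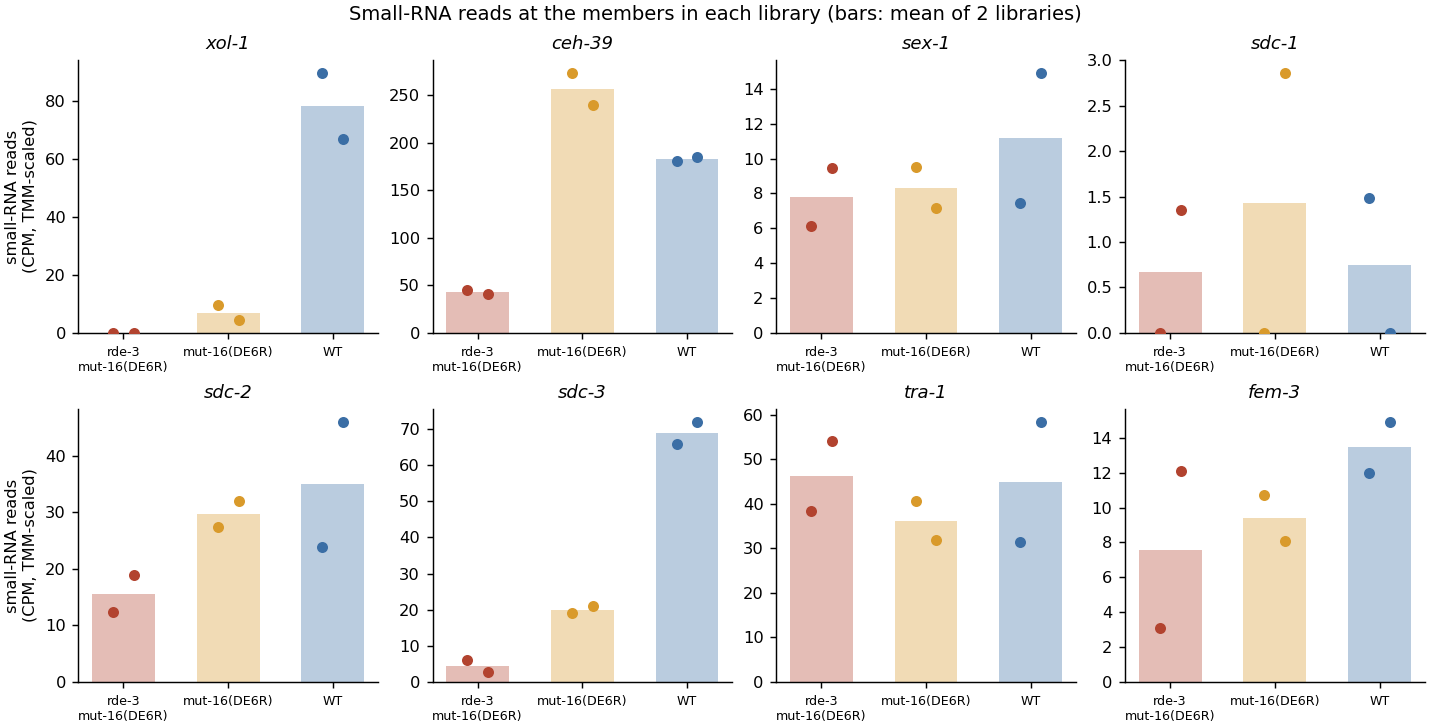
Small-RNA reads per library in CPM (TMM-scaled, linear axis from 0, one scale per panel) at the 8 genes with any reads. Points are libraries and bars are means of 2, for rde-3 mut-16(DE6R), mut-16(DE6R) and WT from left to right. At xol-1 both double-mutant libraries are at 0, and at ceh-39 the mut-16(DE6R) libraries, with 273 and 239 CPM, stand above both WT libraries.

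xol-1, the switch gene of the pathway (chromosome X, 8041313 to 8044409, plus strand, WBcel235), held 0 and 0 reads in rde-3 mut-16(DE6R), 8 and 9 in mut-16(DE6R), against 60 and 54 in WT. On the CPM scale both double-mutant libraries were at 0, the mut-16(DE6R) libraries at 9.52 and 4.28, and the WT libraries at 89.7 and 66.9. The 3 genotypes did not overlap at all, in the order double mutant, mut-16(DE6R), WT. The mut-16(DE6R) level of 6.9 ± 3.7 CPM stood against a WT level of 78.3 ± 16.1 CPM (SD, n = 2 each). With reads pooled over the libraries of a genotype, as for all folds given with a counting interval, mut-16(DE6R) was 13.4-fold lower, with a 95% interval of 7.99 to 23.7. The log2 fold change was −3.71 with a standard error of 0.32 and an adjusted p of 1.35e-29 (edgeR), and −3.01 without mut-16(DE6R) replicate 2. Very small p-values rest on a spread shared across genes and not on the libraries of 1 gene alone. xol-1 was also chosen with these same WT libraries, where most of its reads lie. Its p-value can therefore overstate the fall. With 0 reads against 114, the double mutant was at least 35.8-fold lower than WT, and at least 2.68-fold lower than mut-16(DE6R), taking 3 reads over both double-mutant libraries as the floor. The exact 95% counting intervals, which also cover the error of the other genotype, begin lower, at 28.7-fold and 1.95-fold. All xol-1 reads were listed under C18A11.5b.1, a transcript of 1980 nt and 7 exons, and no other annotated gene overlaps xol-1.

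ceh-39, the ONECUT homeodomain X signal element that represses xol-1 (chromosome X, 1853874 to 1856172, minus strand), showed another order. It held 29 and 30 reads in rde-3 mut-16(DE6R), 229 and 502 in mut-16(DE6R), against 121 and 149 in WT. In CPM this was 44.6 and 40.5 in the double mutant, 273 and 239 in mut-16(DE6R), against 181 and 185 in WT. The libraries of the 3 genotypes were again apart, but here mut-16(DE6R) was highest and the double mutant lowest. The rise in mut-16(DE6R), 256 ± 23.8 CPM against 183 ± 2.72 CPM in WT (SD, n = 2 each), was a log2 fold change of 0.45 ± 0.12 (SE) with an adjusted p of 0.000254 in edgeR and 0.0472 in DESeq2. The double-mutant level of 42.5 ± 2.9 CPM was 4.31-fold lower than in WT, with a counting interval of 3.24 to 5.82. It was 5.86-fold lower than in mut-16(DE6R), with an interval of 4.49 to 7.78. A ratio of reads within a library needs no scaling between libraries. ceh-39 had 28.6 and 55.8 reads per xol-1 read in mut-16(DE6R), against 2.02 and 2.76 in WT, and the double mutant had no xol-1 read to divide by.

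Of the other X signal elements, sex-1 carried few reads and fox-1 none. sex-1 encodes a nuclear receptor (chromosome X, 10201329 to 10205421, minus strand). It held 6.15 and 9.45 CPM in rde-3 mut-16(DE6R), 9.52 and 7.14 in mut-16(DE6R), against 7.47 and 14.9 in WT, from 11 reads in the double mutant, 23 in mut-16(DE6R) and 17 in WT. The libraries of all 3 genotypes overlapped. The log2 fold change in mut-16(DE6R) against WT was −0.55 ± 0.50 (SE) with an adjusted p of 0.347 in edgeR, and the counting interval of the ratio ran from 0.347 to 1.35, so a change was not detectable at this depth. fox-1, which encodes an RNA-binding protein (chromosome X, 2445117 to 2459893), had 0 reads under each of its 6 transcripts in all 6 libraries, although 6 short non-coding genes overlap it. How reads shared by several transcripts were counted is not stated, so 0 reads at fox-1 need not mean that it has no small RNAs. sea-2 with 19 transcripts and fog-1 with 5 also had 0 reads, while jun-1 with 9 held 213 in WT.

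Among the SDC genes, sdc-3 stood apart. SDC-3 is a zinc-finger protein that acts with SDC-2 on X and at her-1 (chromosome V, 15039148 to 15048207, minus strand). It held 4 and 2 reads in rde-3 mut-16(DE6R), 16 and 44 in mut-16(DE6R), against 44 and 58 in WT, which is 6.15 and 2.7 CPM in the double mutant, 19 and 20.9 CPM in mut-16(DE6R), and 65.8 and 71.9 CPM in WT. The genotypes were apart in the same order as at xol-1. In mut-16(DE6R) sdc-3 fell to 20 ± 1.35 CPM, against 68.8 ± 4.34 CPM in WT (SD, n = 2 each), a 3.39-fold lower level with a counting interval of 2.44 to 4.74. The log2 fold change was −1.76 ± 0.25 (SE) with an adjusted p of 2.78e-11 in edgeR. The double mutant, at 4.43 ± 2.44 CPM, was 16-fold lower than WT (interval 7.11 to 44.7) and 4.73-fold lower than mut-16(DE6R) (interval 2.05 to 13.4). Its log2 fold change against WT was −3.96, from −4.60 without rde-3 mut-16(DE6R) replicate 1 to −3.47 without replicate 2. It was −2.87 under library totals and −2.72 under totals without F56H9.8. Of the members with reads in every genotype, sdc-3 thus had the largest difference between the double mutant and WT, and it lies on an autosome.

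sdc-2 did not show a difference of this size, and sdc-1 had too few reads to tell. sdc-2, the gene of the protein that brings dosage compensation to X (chromosome X, 11522707 to 11533450, plus strand), held 12.3 and 18.9 CPM in rde-3 mut-16(DE6R), 27.4 and 31.9 in mut-16(DE6R), against 23.9 and 45.9 in WT. The mut-16(DE6R) libraries lay between the WT libraries, and the double-mutant libraries lay below all others. The log2 fold change in mut-16(DE6R) against WT was −0.23 ± 0.28 (SE) with an adjusted p of 0.484 in edgeR. In the double mutant it was −1.17 against WT, just inside the 2-fold limit used for description, and −0.94 against mut-16(DE6R), just outside it. The value against WT left that limit without WT replicate 2 (−0.65), without rde-3 mut-16(DE6R) replicate 1 (−0.90), with upper quartile factors (−0.64) and under library totals (−0.08). An antisense RNA gene, anr-16, overlaps sdc-2, and the use of strand in counting is not stated, so their reads cannot be told apart. sdc-1 (chromosome X, 16275763 to 16282534), which encodes a zinc-finger protein, had 0 and 1 reads in rde-3 mut-16(DE6R), 0 and 6 in mut-16(DE6R), against 1 and 0 in WT, and was not tested.

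The downstream genes kept overlapping levels in most comparisons. her-1, the secreted signal for male fate (chromosome V, 9697015 to 9702035), had 0 reads in all 6 libraries. fem-3, which encodes a protein that promotes male fate (chromosome IV, 9104966 to 9107607, plus strand), held 3.08 and 12.1 CPM in rde-3 mut-16(DE6R), 10.7 and 8.09 in mut-16(DE6R), against 12 and 14.9 in WT. Its log2 fold change in mut-16(DE6R) against WT was −0.61 ± 0.47 (SE) with an adjusted p of 0.259 in edgeR, although the libraries of these genotypes did not overlap. The 2 double-mutant libraries, from 2 and 9 reads, lay on either side of the mut-16(DE6R) libraries and reached the lower WT library. The log2 fold change against WT was −0.77, −0.13 without rde-3 mut-16(DE6R) replicate 1 and −2.10 without replicate 2.

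tra-1, the zinc-finger factor at the end of the pathway that sets female fate (chromosome III, 11170890 to 11195201, minus strand), held 38.4 and 54 CPM in rde-3 mut-16(DE6R), 40.5 and 31.9 in mut-16(DE6R), against 31.4 and 58.3 in WT. All 3 genotypes overlapped. The log2 fold change in mut-16(DE6R) against WT was −0.41 ± 0.25 (SE) with an adjusted p of 0.143 in edgeR. This value rests on the WT libraries: without WT replicate 1 it was −0.77 with an adjusted p of 0.0152, and without WT replicate 2 it was 0.10 with an adjusted p of 0.843. The double mutant had a log2 fold change of 0.02 against WT and 0.43 against mut-16(DE6R).

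**Figure D2:**
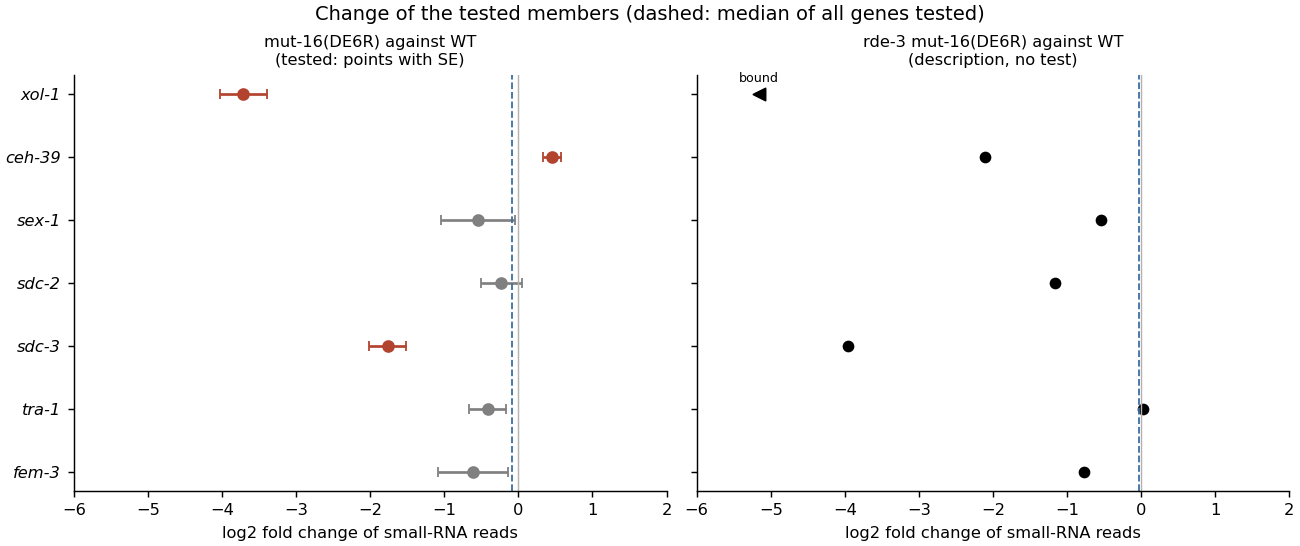
Fitted log2 fold changes of the 7 tested genes in mut-16(DE6R) against WT (left, with SE; red where the adjusted p is under 0.05) and in the double mutant against WT (right, a description with no test). The dashed line is the median of all 5312 genes tested. The triangle marks xol-1 at the floor of 3 reads over both double-mutant libraries, 35.8-fold lower, since the double mutant has 0 reads there.

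Side by side, 4 of the 7 tested genes were at least 2-fold lower in the double mutant than in WT: xol-1, ceh-39, sdc-2 and sdc-3. This is fixed in part by how the set was chosen, and 35.5% of all genes tested were that much lower, so nothing is read from it. Against mut-16(DE6R), xol-1, ceh-39 and sdc-3 were at least 2-fold lower, 3 of 7, where 28.5% of all genes tested were. No tested member was 2-fold higher in the double mutant than in WT or mut-16(DE6R), where 12.3% and 4.24% of all genes tested were. With such shares none among 7 is near the background, and xol-1 and ceh-39 were chosen as lower there, so nothing is read from this. The median log2 fold change of the 7 was −0.55 in mut-16(DE6R) against WT, −1.17 in the double mutant against WT and −0.94 in the double mutant against mut-16(DE6R). Over all 5312 genes the medians of these comparisons were −0.09, −0.03 and −0.02. Over the 435 X genes tested, where 4 of the 7 lie, they were −0.02, −2.58 and −2.24. The medians with the double mutant include xol-1 and ceh-39, by which the set was chosen, so nothing is read from these either. These comparisons share libraries and are not independent of each other. The libraries of the compared genotypes did not overlap at 4 of the 7 members in each comparison, against 77.5%, 81.6% and 69.4% of all genes tested.

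Many genes of the X chromosome had fewer reads in the double mutant. Of the 435 X genes tested, 67.1% were at least 2-fold lower in rde-3 mut-16(DE6R) than in WT, with a median log2 fold change of −2.58, and 75.2% were in rde-3 mut-16(DE6R) against mut-16(DE6R). In mut-16(DE6R) against WT 34.3% were, with a median of −0.02. In that comparison 130 X genes were at least 2-fold higher. By the test 153 of the 435 passed as higher, ceh-39 among them, and 175 as lower. Of all 5312 genes, 1173 passed as higher and 1944 as lower. Of the 4 tested X members, 3 were at least 2-fold lower in the double mutant than in WT (xol-1, ceh-39 and sdc-2) and sex-1 was not. At ceh-39 the double-mutant value of −2.11 was smaller in size than the X median, and xol-1 was beyond it. On the autosomes 31.8% of genes were that much lower in the double mutant than in WT, and of the 3 autosomal members only sdc-3 was.

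Levels in WT, set per kilobase of transcript, placed 2 members above the median of 30.9 CPM per kb for all genes tested. ceh-39 stood at 99.7 CPM per kb, the 83.8th percentile, and xol-1 at 39.6, the 59.9th. The next were sdc-3 at 10.2 CPM per kb and tra-1 at 9.59, which do not differ beyond their spread between libraries (SD 0.64 and 4.07). fem-3 at 8.05 (SD 1.24), sex-1 at 5.89 (SD 2.76) and sdc-2 at 3.77 CPM per kb (SD 1.68) followed, each within the spread of its neighbour. In mut-16(DE6R) ceh-39 stayed first with 139 CPM per kb, whereas xol-1, at 3.49 (SD 1.87), lay among tra-1 at 7.74, fem-3 at 5.64, sex-1 at 4.39, sdc-2 at 3.21 and sdc-3 at 2.95. The length used is that of 1 transcript per gene. xol-1, tra-1 and fem-3 have 2 transcripts each. Whether reads shared by transcripts were kept is not stated, so the levels of these 3 genes could be too low in this ranking.

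**Figure D3:**
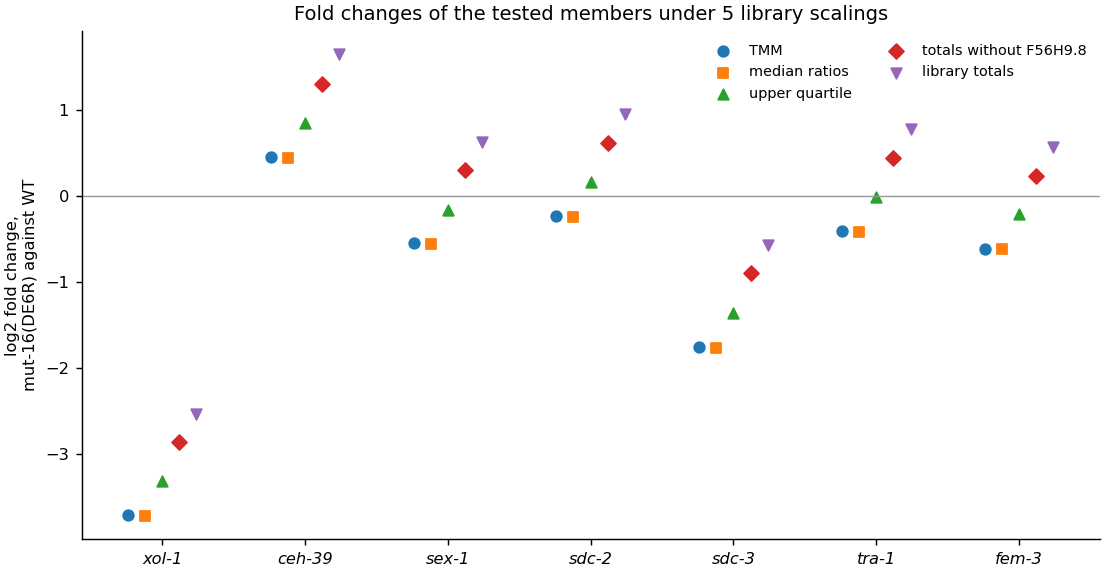
Log2 fold changes of the 7 tested genes in mut-16(DE6R) against WT under 5 library scalings. xol-1 and sdc-3 are below 0 and ceh-39 above 0 under all 5, while sex-1, sdc-2, tra-1 and fem-3 lie on either side of 0 depending on the scaling.

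The direction of 4 members depends on how libraries are scaled. With library totals in place of TMM factors, the median of all genes shifted to a log2 fold change of 1.09 in mut-16(DE6R) against WT, and sex-1 (0.63), sdc-2 (0.95), tra-1 (0.78) and fem-3 (0.57) came out higher in mut-16(DE6R). sdc-2 and tra-1 then passed as higher, with adjusted p of 0.000649 and 0.002 in edgeR. Relative to that median all 4 were still lower, by log2 values of −0.46, −0.13, −0.31 and −0.52. xol-1 and sdc-3 passed as lower and ceh-39 as higher under every scaling tried, with ranges of −3.72 to −2.53, −1.77 to −0.57 and 0.44 to 1.65. Relative to the median of all genes, these 3 were at −3.61, −1.66 and 0.56 under library totals. Totals without F56H9.8 shifted the median of all genes in the double mutant against WT to 1.22, and ceh-39 stood at −0.85, sdc-3 at −2.72 and sdc-2 at 0.08. Relative to that median they were at −2.07, −3.94 and −1.14.

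Markers of other cell types moved with the genotypes. Summed sperm markers ran from 3.08 to 5.4 CPM in rde-3 mut-16(DE6R), 14.3 to 21.9 in mut-16(DE6R) and 40.9 to 52.3 in WT, the same order as xol-1 and sdc-3. Of the 9 sperm markers, 4 had reads in the double mutant, 5 in mut-16(DE6R) and 4 in WT, and msp-3 and msp-10 were at 0 throughout. The order is carried by spe-15, with 0 reads in the double mutant, 14 in mut-16(DE6R) and 44 in WT. In part it is also carried by spe-41, with 0 reads in the double mutant, 29 in mut-16(DE6R) and 20 in WT. Scaled to depth, spe-41 had means of 0, 10.1 and 14.1 CPM in that order. spe-11 was highest in mut-16(DE6R), with 11 reads against 2 in WT, and gsp-3 and gsp-4 had 2 reads each, all in the double mutant. Summed intestine markers ran the other way, from 518 to 635 CPM in the double mutant, 252 to 276 in mut-16(DE6R) and 56.8 to 73.1 in WT, with reads at 7 of 8 genes in each mutant and 6 in WT. Summed muscle markers were 198 to 206 CPM in the double mutant, 64.3 to 65.2 in mut-16(DE6R) and 33.5 to 34.4 in WT, with reads at 5 of 6 genes in each mutant and all 6 in WT. The intestine sum is led by vit-2, and all 5 tested intestine markers passed as higher in each mutant against WT. The muscle sum is led by unc-54. Among 4 tested muscle markers, 2 passed as higher in mut-16(DE6R) against WT and 3 in the double mutant against WT. myo-3 and mlc-1 did not pass in mut-16(DE6R), with log2 fold changes of 0.23 and −0.25 (adjusted p 0.762 and 0.796, edgeR). The part of the marker shifts in the results at xol-1, ceh-39 and sdc-3 was not tested.

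Other genes of the pathway were taken from 4 lists with 32 genes, of which 31 were in the table and 20 were tested. In mut-16(DE6R) against WT 11 of the 20 rose, 0 fell and 9 did not pass, with a median log2 fold change of 0.39, where 22.1% of all genes tested passed as higher and 36.6% as lower. The count of 0 was also 0 at an unadjusted p under 0.05 and in DESeq2, which called 7 as higher. In the double mutant against WT 12 rose, 0 fell and 8 did not pass, with a median of 0.60, and again 0 were lower at an unadjusted p under 0.05 or in DESeq2. In that comparison 26.8% of all genes tested passed as higher and 37.9% as lower. Under library totals 18 of the 20 passed as higher in mut-16(DE6R), as did 3394 of all 5312 genes, and 7 of the 20 did without mut-16(DE6R) replicate 2.

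Of 6 tested genes of the dosage compensation complex, the condensin-like machine that SDC-2 recruits to X, 5 rose in mut-16(DE6R) and 4 in the double mutant against WT, where 22.1% and 26.8% of all genes tested rose. The condensin subunit gene dpy-26 held 398 and 364 CPM in rde-3 mut-16(DE6R), 346 and 331 in mut-16(DE6R), against 229 and 248 in WT. Its log2 fold change was 0.49 ± 0.10 in mut-16(DE6R) and 0.67 ± 0.11 in the double mutant against WT (SE, adjusted p 7.53e-06 and 1.00e-08, edgeR). mix-1, an SMC subunit, had 0.43 ± 0.11 in mut-16(DE6R) and 0.62 ± 0.12 in the double mutant against WT (adjusted p 0.000389 and 1.07e-06). dpy-28 and dpy-21, a histone demethylase gene, passed in mut-16(DE6R) with 0.67 ± 0.14 and 0.55 ± 0.14 (adjusted p 1.18e-05 and 0.000198). In the double mutant against WT dpy-28 did not pass and dpy-21 did, with 0.13 ± 0.18 and 0.39 ± 0.16 (adjusted p 0.509 and 0.0276, edgeR). capg-1 passed in the double mutant with 0.77 ± 0.14 and not in mut-16(DE6R), with 0.26 ± 0.14 (adjusted p 1.80e-07 and 0.0884, edgeR). All of these genes lie on autosomes.

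**Figure D4:**
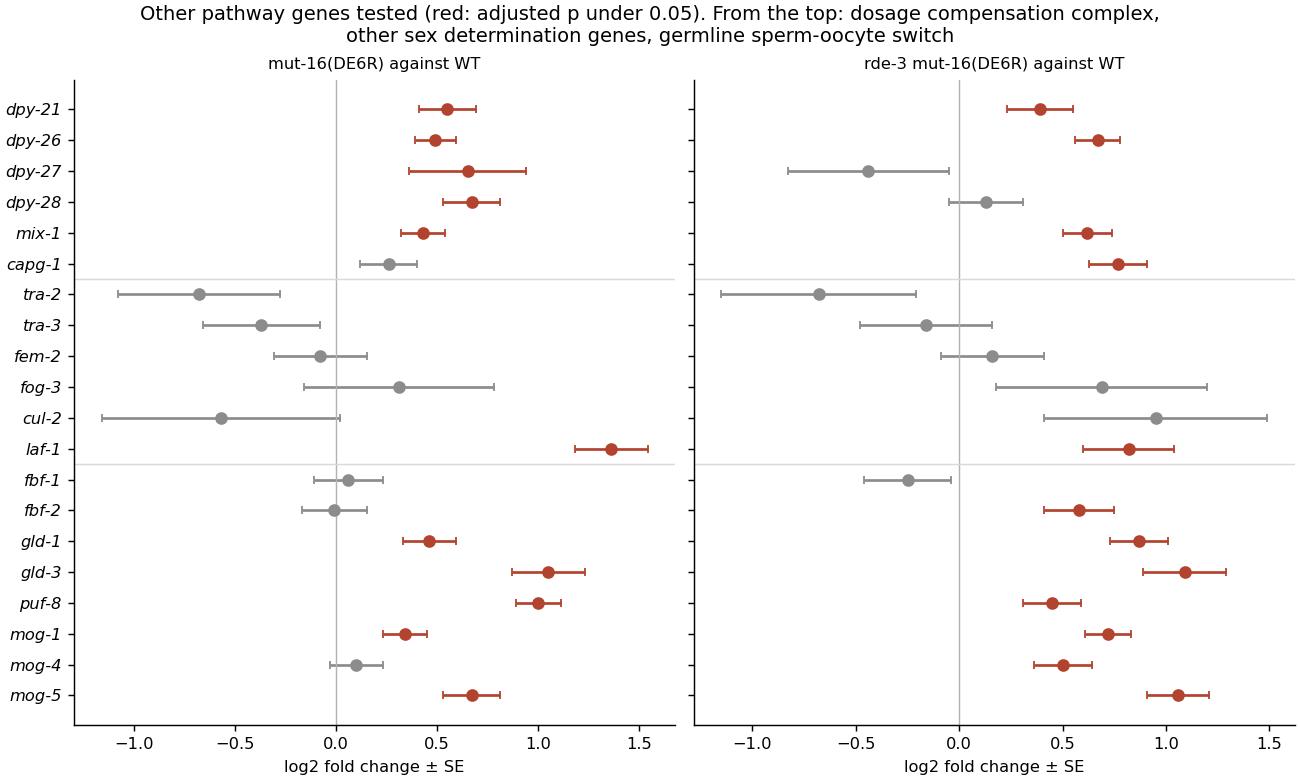
Log2 fold changes with SE of the 20 other pathway genes tested, in mut-16(DE6R) against WT (left) and in the double mutant against WT (right). Red marks an adjusted p under 0.05, and grey lines part the lists. No gene passed as lower in either panel, 11 passed as higher on the left and 12 on the right.

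Of 6 other sex determination genes tested, only laf-1, a DEAD-box helicase gene, passed against WT. It rose by 1.36 ± 0.18 in mut-16(DE6R) and 0.82 ± 0.22 in the double mutant (log2, SE, adjusted p 2.10e-13 and 0.000335, edgeR). tra-2, the receptor of HER-1, held 4.61 and 18.9 CPM in rde-3 mut-16(DE6R), 9.52 and 13.3 in mut-16(DE6R), against 22.4 and 17.4 in WT, and did not pass (adjusted p 0.193 in the double mutant and 0.13 in mut-16(DE6R) against WT). fem-2, the gene of a phosphatase that acts with FEM-3, and the calpain gene tra-3 did not pass either, with log2 fold changes of −0.08 ± 0.23 and −0.37 ± 0.29 in mut-16(DE6R) against WT (SE). fog-1, needed for sperm fate, and dmd-3, a factor of the male tail, had 0 reads in all 6 libraries.

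Of 8 tested genes of the germline switch between sperm and oocytes, 5 rose in mut-16(DE6R) and 7 in the double mutant against WT, where 22.1% and 26.8% of all genes tested rose. Germline markers moved too, with 1 of 7 tested higher in mut-16(DE6R) and 6 of 7 in the double mutant against WT, and their part in these counts was not tested. The Pumilio-family gene puf-8 rose by 1.00 ± 0.11 in mut-16(DE6R), and gld-3, which encodes a KH-domain RNA-binding protein, by 1.05 ± 0.18 (log2, SE, adjusted p 2.28e-17 and 3.32e-08, edgeR). In the double mutant against WT puf-8 rose by 0.45 ± 0.14 and gld-3 by 1.09 ± 0.20 (adjusted p 0.00178 and 2.52e-07, edgeR). mog-5, a DEAH-box helicase gene, rose by 0.67 ± 0.14 in mut-16(DE6R) and 1.06 ± 0.15 in the double mutant against WT (adjusted p 4.69e-06 and 2.57e-12). The translational repressor gene gld-1 rose by 0.46 ± 0.13 in mut-16(DE6R) and 0.87 ± 0.14 in the double mutant (adjusted p 0.00144 and 2.14e-09), and mog-1 by 0.34 ± 0.11 in mut-16(DE6R) and 0.72 ± 0.11 in the double mutant (adjusted p 0.00295 and 8.12e-10). Against WT, mog-4 passed in the double mutant with 0.50 ± 0.14 and not in mut-16(DE6R), with 0.10 ± 0.13 (adjusted p 0.000917 and 0.55, edgeR). fbf-1 and fbf-2 are near-identical copies, and reads could be split between them, so their values are uncertain.

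In rde-3 mut-16(DE6R) against mut-16(DE6R), 7 of the 20 pathway genes passed as higher, 4 as lower and 9 did not pass, where 16.5% and 26.2% of all genes tested did. The 4 lower ones were dpy-27, dpy-28, laf-1 and puf-8. DESeq2 called 0 as higher and 1 as lower in this comparison, or 4 and 4 at an unadjusted p under 0.05, so these calls depend on the tool. puf-8 had the smallest p in edgeR, with a log2 fold change of −0.55 ± 0.11 (SE, adjusted p 3.36e-06).

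ceh-39 lies in a cluster of ONECUT homeodomain genes on X, with ceh-21 and ceh-41 just to its left, and both were looked at after their values were seen. ceh-41 (chromosome X, 1846608 to 1848675) held 10.8 and 4.05 CPM in rde-3 mut-16(DE6R), 46.4 and 52.8 in mut-16(DE6R), against 23.9 and 28.5 in WT, the same order of genotypes as ceh-39. Its log2 fold change was 0.94 ± 0.27 in mut-16(DE6R) against WT (SE, adjusted p 0.00108, edgeR) and −1.86 in the double mutant against WT. ceh-21 (chromosome X, 1848779 to 1852736) held 10.8 and 13.5 CPM in the double mutant, 15.5 and 23.8 in mut-16(DE6R), against 1.49 and 7.44 in WT. It was likewise highest in mut-16(DE6R), with a log2 fold change of 2.14 ± 0.51 against WT (SE, adjusted p 8.93e-05, edgeR), but its double-mutant libraries were above those of WT. Reads could be split between related copies of these genes where they share sequence. Of the 435 X genes tested, 153 passed as higher in mut-16(DE6R) against WT, so such a rise is not particular to this cluster.

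**Figure D5:**
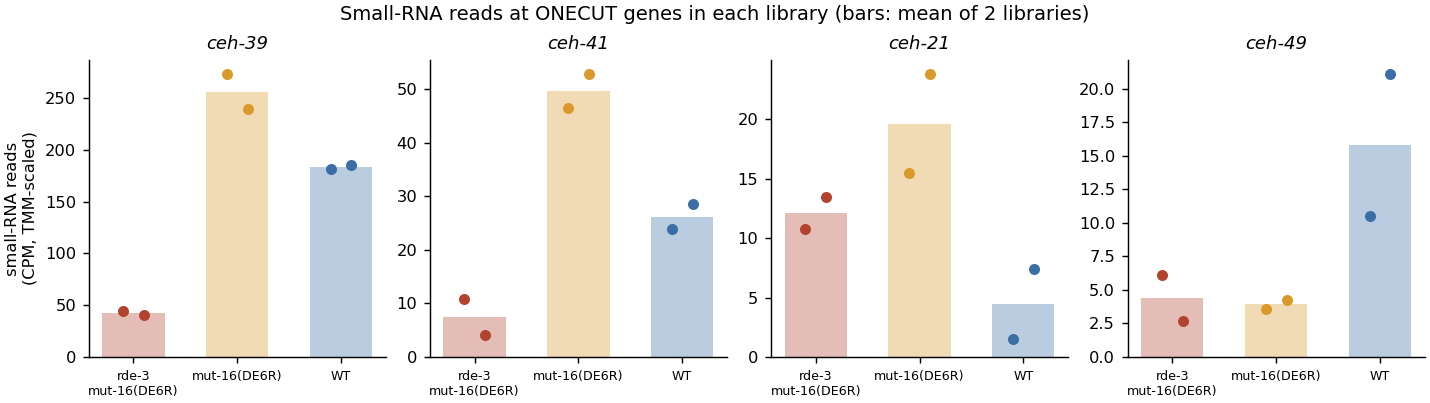
Small-RNA reads per library in CPM (TMM-scaled, linear axis from 0, one scale per panel) at 4 ONECUT genes: ceh-39, ceh-41 and ceh-21 of the X cluster and ceh-49 of chromosome V. Points are libraries and bars are means of 2, for rde-3 mut-16(DE6R), mut-16(DE6R) and WT from left to right. ceh-39, ceh-41 and ceh-21 are highest in mut-16(DE6R), and ceh-49 is highest in WT.

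Genes with profiles most like those of xol-1 and ceh-39 over the 6 libraries were found by the distance between log2 CPM values, each gene centred on its own mean, among 5291 genes with at least 5 CPM on average. For xol-1 these were jun-1 on chromosome II at a distance of 0.391, C17F4.8 on chromosome II at 0.442 and the gene with identifier WBGene00014858 on chromosome I at 0.538. C17F4.8 held 0 and 0 CPM in rde-3 mut-16(DE6R), 9.52 and 2.86 in mut-16(DE6R), against 73.2 and 74.4 in WT. For ceh-39 they were Y26G10.5 on chromosome V at 0.391, T09B9.4 on X at 0.473 and cpr-9, a cathepsin B-related gene on chromosome V, at 0.585. T09B9.4 held 3.08 and 4.05 CPM in the double mutant, 41.7 and 37.6 in mut-16(DE6R), against 22.4 and 22.3 in WT.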

How the data were processed

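The authors deposited whole-number counts of small-RNA reads per transcript for the 6 libraries used here. Per the labels' protocols, small RNAs of lysed worms were extracted with Trizol, treated with PIR-1, ligated to linkers, amplified by PCR and size-selected on gels. Trimming and mapping tools named per the submitters' processing notes are cutadapt (version 4.9) and Bowtie (version 1.3.1), with WBcel235 as the build and no settings. For the counting program, use of strand, multi-mapping reads and PCR duplicates, the answer is not given in the sources used here. PCR reads without molecular identifiers are not independent molecules, so counting intervals (exact, 95%) and floors cover counting error only. No spike-in is named, so changes are relative to the bulk of genes.

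Of 34325 identifiers in the count table, 33755 were WBcel235 transcripts and 190 sequence names, 379 matched neither, and 1 named no gene and held 0 reads. Transcripts were summed per gene. 20 other columns of per-sample values were not used. Of 735 genes with several transcripts and at least 50 reads, 74.3% had all reads under 1 transcript. Whether reads shared by several transcripts were kept is not stated. A count of 0 at a gene with several transcripts may therefore come from the counting.

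Tests used edgeR 4.0.16 (R 4.3.3, limma 3.58.1): TMM factors, expression filter (minimum count 10, minimum total 15), robust quasi-likelihood fit with 1 coefficient per genotype, Benjamini-Hochberg adjustment over 5312 genes at 0.05. The fit has 3 residual degrees of freedom and a biological coefficient of variation of 0.0401. The SE is the absolute log2 fold change divided by the square root of F, and so restates the p-value. The filter keeps genes high in 1 genotype. A simulation of mut-16(DE6R) against WT with 5250 genes recovered 173 of 180 genes changed 4-fold (96.1%), with 5 false calls. It drew all other genes from their WT means, with 1 coefficient of variation for every gene. It holds no shift in F56H9.8 or in the bulk of genes, so it cannot give the rate of false calls under such shifts. Libraries of a genotype differed by more than sampling noise (chi-square per degree of freedom 1.13 in rde-3 mut-16(DE6R), 1.11 in mut-16(DE6R) and 1.54 in WT). Alternatives were 4 other scalings, no filter, DESeq2 1.42.0, only the genotypes compared, a replicate block, single transcripts and leaving out each library.

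The 10 genes and all lists were chosen with earlier results of these data known. Named were the 10 genes, pathway genes past the threshold (at most 10 per comparison, by adjusted p), the 3 nearest profiles of xol-1 and ceh-39, and F56H9.8. Values of a pathway gene are not given for every comparison it passed in. Genes named outside this rule are neighbours and genes that did not pass.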

Additional observations from a re-analysis of the deposited data

How the results depend on the processing

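In mut-16(DE6R) against WT, xol-1, ceh-39 and sdc-3 kept direction and call under all 13 alternatives run, with log2 fold changes from −4.14 to −2.53, 0.38 to 1.65 and −1.86 to −0.57 (adjusted p from 6.37e-30 to 4.52e-10, 1.15e-44 to 0.0472 and 1.86e-11 to 0.0341). Direction turned under library totals at sex-1 (0.63), sdc-2 (0.95), tra-1 (0.78) and fem-3 (0.57). It turned under totals without F56H9.8 at sex-1 (0.30), sdc-2 (0.62), tra-1 (0.44) and fem-3 (0.24). sdc-2 also turned with upper quartile factors (0.16) and without a filter (0.14). On leaving out libraries it ranged from −0.61 (without WT replicate 1) to 0.31 (without WT replicate 2), and tra-1 from −0.77 to 0.10 in the same order. sdc-2 in the double mutant against WT turned under totals without F56H9.8 (0.08).

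Counts of the 10 genes changed as follows. Higher in mut-16(DE6R) were 3 under library totals and 2 under totals without F56H9.8, and lower were 2 to 3 on leaving out libraries. At least 2-fold lower in rde-3 mut-16(DE6R) than in WT were 2 under totals without F56H9.8, and 3 to 5 on leaving out libraries. At least 2-fold higher was 1 under totals and 1 under totals without F56H9.8. Against mut-16(DE6R), 5 were lower without a filter and 3 to 5 on leaving out libraries.

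Pathway genes higher in mut-16(DE6R) than in WT numbered 18 under totals, 17 under totals without F56H9.8, 7 in DESeq2 and 7 to 10 on leaving out libraries. In the double mutant against WT, 10 to 12 were higher and 0 to 1 lower on leaving out libraries. Against mut-16(DE6R), 11 were higher under totals without F56H9.8, 1 without a filter, 0 in DESeq2 and 3 to 7 on leaving out libraries, and lower were 0 under totals without F56H9.8, 1 in DESeq2 and 2 to 4 on leaving out libraries.

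Of all genes tested, higher in mut-16(DE6R) than in WT were 1173, against 3394 under totals, 2938 under totals without F56H9.8, 2107 with upper quartile factors, 1789 without a filter, 482 in DESeq2 and 725 to 1085 on leaving out libraries. Lower were 1944, against 1005 and 1244 under the 2 kinds of totals and 1642 to 2184 on leaving out libraries. In the double mutant against WT 1424 were higher, against 2944, 3069, 2369 and 747 (totals, totals without F56H9.8, upper quartile, DESeq2). In rde-3 mut-16(DE6R) against mut-16(DE6R) 877 were higher, against 2028 under totals without F56H9.8, 143 without a filter, 217 in DESeq2 and 542 to 678 on leaving out libraries. Apart from the scalings and the smaller sets of libraries, the cause was not tested.

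Same-numbered libraries did not deviate together (correlations of deviations −0.0161 and −0.000684 for the double mutant and mut-16(DE6R) with WT, and −0.0235 between the mutants). Whether they shared a batch cannot be told from this. A correlation over genes removes shifts common to all genes, and counting error weakens it. With a replicate block the log2 fold changes in mut-16(DE6R) against WT were −3.62 at xol-1, 0.47 at ceh-39 and −1.77 at sdc-3, no call of the 10 genes changed, and 1111 genes were higher and 1914 lower. Depth limits sex-1, fem-3 and sdc-1 most, with at most 26 reads per genotype.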

Other observations

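The annotated neighbours of xol-1 were set beside it after their values were seen. C34D10.1, 9698 bp to its left on X, held 3.08 and 2.7 CPM in rde-3 mut-16(DE6R), 10.7 and 10.5 in mut-16(DE6R), against 49.3 and 48.4 in WT, with the genotypes apart in the same order as at xol-1. Its log2 fold change in mut-16(DE6R) against WT was −2.20 ± 0.32 (SE, adjusted p 4.55e-11, edgeR). On the right, C18A11.4, 1108 bp away, held 1 read in the double mutant, 13 in mut-16(DE6R) and 7 in WT and was not tested. Its mean levels were 0.769, 3.81 and 4.59 CPM in that order. The nearest genes of sdc-3 on either side, at 312 and 2679 bp, held at most 1 read per genotype. T26C11.9, 24 bp from ceh-39, held 1.54 and 1.35 CPM in rde-3 mut-16(DE6R), 0 and 7.14 in mut-16(DE6R), against 4.48 and 7.44 in WT. These came from 2, 15 and 9 reads, and all mut-16(DE6R) reads lay in replicate 2.

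sea-1, which encodes a T-box protein and is an autosomal signal element that activates xol-1 (chromosome II, 3671908 to 3673593), had too few reads to be tested. It held 5 and 4 reads in rde-3 mut-16(DE6R), 0 and 1 in mut-16(DE6R), against 3 and 2 in WT. sea-2, another such element, had 0 reads in all 6 libraries. The ONECUT gene ceh-49 (chromosome V, 6118333 to 6120206), looked at after its values were seen and not tested, held 6.15 and 2.7 CPM in rde-3 mut-16(DE6R), 3.57 and 4.28 in mut-16(DE6R), against 10.5 and 21.1 in WT, so both mutant genotypes lay below WT.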
